A study of Rattus norvegicus with 12 samples.

Results

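The histone deacetylases (HDACs) of the rat striatum were examined as a gene family after methamphetamine (MA) self-administration. The members were chosen by name, as the class I genes *Hdac1*, *Hdac2*, *Hdac3* and *Hdac8*, the class IIa genes *Hdac4*, *Hdac5*, *Hdac7* and *Hdac9*, the class IIb gene *Hdac6* and the class IV gene *Hdac11*. Of these 10 names, 8 were found among the 17337 genes of the count table, while *Hdac6* and *Hdac7* were not analysed here. Between 19489 and 28053 reads per rat were counted on the 8 members.

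HDACs remove acetyl groups from lysines of histones and other proteins, and acetylated histones are typical of active promoters and enhancers. Class I enzymes are mostly nuclear and act as the catalytic subunits of corepressor complexes. Class IIa enzymes have little catalytic activity of their own, bind MEF2 transcription factors, and leave the nucleus when calcium-dependent and other kinases phosphorylate them and 14-3-3 proteins bind. In the striatum, class IIa members have long been studied as regulators of the response to psychostimulants, and *Hdac5* in particular as one that limits cocaine reward.

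All 12 libraries came from the striatum of adult male Sprague–Dawley rats of WT genotype. The label of each names 16 days of MA self-administration, which was intravenous and in daily sessions. In 4 rats the tissue was taken 12 h after the last session (MA12) and in 4 rats 24 h after it (MA24). A further 4 rats are labelled non-addicted, with the same 16 days of MA self-administration and no time of tissue collection in their labels. Groups labelled as without MA were not analysed here, so by the labels every value below compares rats that had taken MA. The study's methods name a saline group and MA groups but no non-addicted group. Which of those groups the non-addicted rats match is not resolved here. Since 12 h and 24 h after a session are also different times of day, abstinence and time of day cannot be told apart. Each library is 1 rat, and the labels give all 12 the same batch.

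Total counts per rat lay between 17908962 and 23850284. The striatal origin was visible in 10 markers of striatal projection neurons, whose summed level was 14158 to 18624 CPM (counts scaled to a common library size) in the 12 rats. Of 6 markers of cortical excitatory neurons, 2 had enough counts to be tested. Their summed level was 2.96 to 10.2 CPM in MA24 rats, highest in rat 16N. It was 2.36 to 3.81 CPM in MA12 and 2.97 to 5.78 CPM in non-addicted rats. The largest component of variance over all genes (PC1, 26.8% of the variance) placed MA24 rat 14N at -27.5 and MA12 rat 21 at 19.2, at opposite ends. PC1 also separated the 2 groups, with MA12 rats from 2.92 to 19.2 and MA24 rats from -27.5 to -5.31. Levels are given as CPM scaled by the trimmed mean of M-values (TMM). They count reads and are not divided by transcript length, so they are compared between rats and not between genes. In bulk tissue, fewer cells of a type and less RNA per cell cannot be told apart.

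The stretch of 250 bases before the start of each gene was read from RefSeq promoters of the GRCr8 build, in which 7 of the 8 members had an entry. The 3 class IIa members are shown, because they lay on both sides of 0 in the comparison of MA24 with MA12. Each sequence runs 5′ to 3′ along the gene. Capitals mark the letters CACGTG (an E-box), TGACG (a partial cAMP response element, here called the short element) and GGGCGG (a GC box), each searched on both strands.
*Hdac4*, chr9:100197638-100197887, minus strand: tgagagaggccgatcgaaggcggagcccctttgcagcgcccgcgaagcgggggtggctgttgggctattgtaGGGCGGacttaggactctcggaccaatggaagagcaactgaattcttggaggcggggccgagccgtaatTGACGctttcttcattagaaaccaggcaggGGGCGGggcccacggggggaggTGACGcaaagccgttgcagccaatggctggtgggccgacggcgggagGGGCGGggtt
*Hdac5*, chr10:87688055-87688304, minus strand: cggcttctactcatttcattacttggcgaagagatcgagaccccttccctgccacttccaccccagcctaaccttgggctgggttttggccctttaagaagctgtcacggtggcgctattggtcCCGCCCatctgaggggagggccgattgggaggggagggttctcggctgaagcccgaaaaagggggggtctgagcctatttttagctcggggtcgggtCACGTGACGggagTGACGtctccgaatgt
*Hdac9*, chr6:57052572-57052821, minus strand: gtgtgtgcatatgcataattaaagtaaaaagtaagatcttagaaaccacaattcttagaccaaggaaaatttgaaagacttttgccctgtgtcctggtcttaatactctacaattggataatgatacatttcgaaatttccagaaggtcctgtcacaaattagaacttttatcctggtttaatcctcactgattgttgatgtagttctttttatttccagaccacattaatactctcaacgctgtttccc

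The *Hdac4* stretch held 64.4% G and C, 2 short elements and 3 GC boxes. The *Hdac5* stretch held 58.8% G and C, 1 E-box that overlaps the first of its 2 short elements, and 1 GC box read on the other strand. The *Hdac9* stretch held 34.4% G and C and none of these letters. Over 33469 rat promoters of the same length the median was 51.2%, and 5.59% held the E-box, 18.2% the short element and 30.5% the GC box. The full cAMP response element TGACGTCA, found in 1.59% of promoters, and TATAAA, found in 12.9%, were in none of the 7 member stretches. These are matches of letters in this window and say nothing of binding.

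The comparison of MA24 with MA12 asked which transcripts differed between 12 h and 24 h of abstinence. None of the 7 members tested with edgeR's quasi-likelihood test passed an adjusted p below 0.05, while 5.16% of all 10754 genes tested did. Without adjustment, 3 of the 7 were below 0.05 (*Hdac4*, *Hdac5* and *Hdac11*), against 23.6% of all genes. *Hdac4* was the nearest to the threshold and the member with the largest difference, on the lower side in MA24. *Hdac5* and *Hdac11* lay on the higher side. The median log2 FC of the 7 members was -0.10, against -0.02 over all genes tested.

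*Hdac4* encodes a class IIa enzyme that shuttles between cytoplasm and nucleus in neurons. Its level in the MA12 rats was 20.3, 20.8 and 21.0 CPM in rats 21, 31 and 4N and 14.4 CPM in rat 7N. In the MA24 rats it was 14.0, 8.53, 12.8 and 16.8 CPM in rats 9N, 14N, 15N and 16N. The other MA12 rats were thus close together and above every MA24 rat, while rat 7N lay among the MA24 rats, so the groups overlapped. The fold change of MA24 over MA12 was 0.680 (95% interval 0.527 to 0.877), or a log2 FC of -0.56 ± 0.18 (SE), and the edgeR adjusted p was 0.0690. Over the 70 splits of 8 rats, the two-sided exact permutation p was 0.0571, or 0.274 adjusted over the members and comparisons. The call depended on the settings. *Hdac4* passed with DESeq2 (adjusted p = 0.0437), with edgeR's likelihood ratio test (0.0398) and without MA12 rat 7N (0.0284, log2 FC -0.66). Among rats with a number ending in N, where rats 4N and 7N are the only MA12 rats, its log2 FC was -0.43 (edgeR adjusted p = 0.356).

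*Hdac5* encodes the class IIa enzyme most studied in psychostimulant reward. Its level was 159, 178, 205 and 192 CPM in the MA12 rats 21, 31, 4N and 7N, and 210, 209, 196 and 257 CPM in the MA24 rats 9N, 14N, 15N and 16N. Only MA24 rat 15N fell within the MA12 range, below MA12 rat 4N. The fold change was 1.19 (95% interval 1.01 to 1.39), with an edgeR adjusted p of 0.172 and an exact permutation p of 0.0571.

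*Hdac9*, the third class IIa member with values, encodes a repressor of MEF2-dependent genes and was the least counted member, with 40 to 132 reads per rat. The MA12 rats had 5.55, 5.47, 3.81 and 4.01 CPM and the MA24 rats 4.43, 2.91, 3.65 and 2.90 CPM, in the order of rats above. The higher 2 MA12 rats stood above all MA24 rats, and the other 2 lay within the MA24 range. Its log2 FC was -0.44 ± 0.24 (SE), with an edgeR adjusted p of 0.282. The class IIa members therefore did not share 1 sign in this comparison.

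*Hdac11* encodes the sole class IV enzyme, which removes long fatty acyl groups more readily than acetyl groups. It was the one member whose groups did not overlap, where 15.6% of all genes tested did not overlap. Its level was 561, 623, 631 and 616 CPM in the MA12 rats and 731, 680, 695 and 712 CPM in the MA24 rats. All 4 MA24 rats thus lay above all 4 MA12 rats. The fold change was 1.16 (95% interval 1.02 to 1.32), with an edgeR adjusted p of 0.162. An exact permutation gave p = 0.0286, which is as small as this number of rats permits, and 0.274 when adjusted over the members and comparisons.

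**Figure D1:**
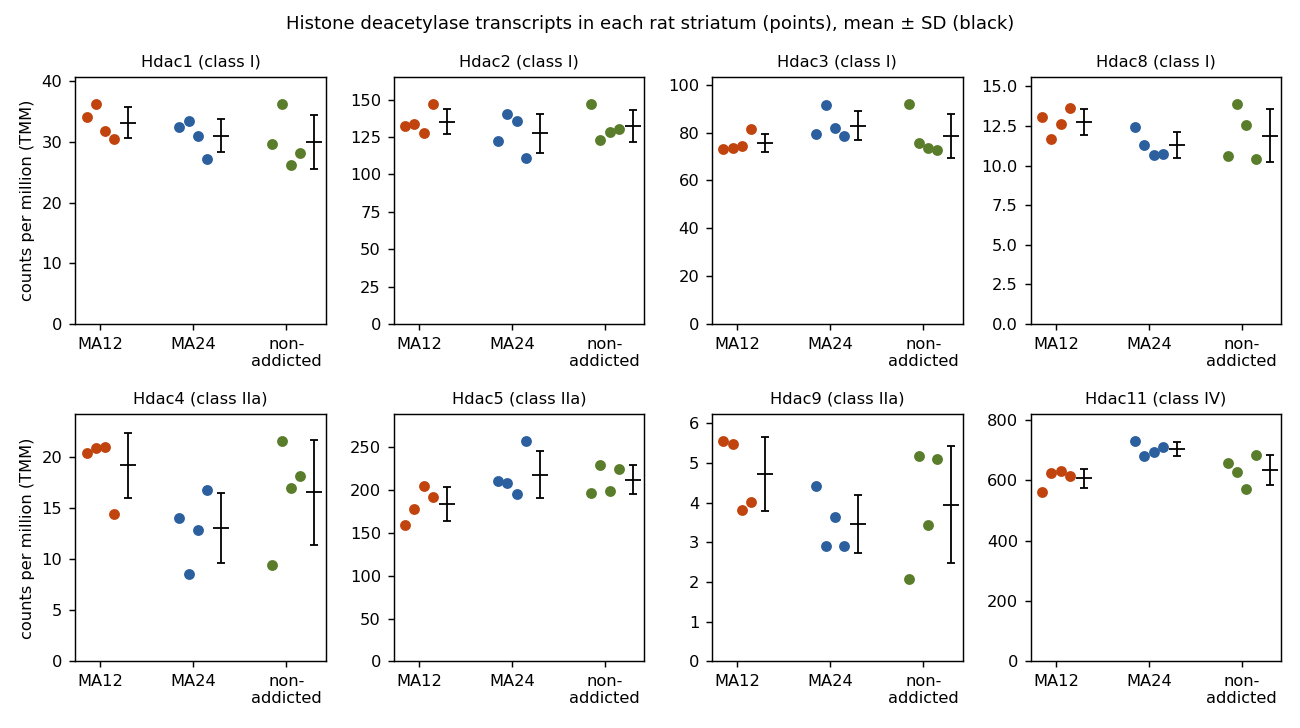
Level of each of the 8 members in each rat, in TMM-scaled CPM on a linear axis from 0 (points, 1 per rat, 4 per group), with the group mean ± SD in black. *Hdac4* was 19.2 ± 3.15 CPM in MA12 and 13.0 ± 3.43 CPM in MA24, with 1 MA12 rat at 14.4 CPM, while *Hdac11* was 608 ± 31.7 and 704 ± 22.0 CPM with no overlap between these groups.

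The class I members differed less in fold change. *Hdac1* and *Hdac2* encode the paired catalytic subunits of the NuRD, Sin3 and CoREST complexes. *Hdac1* was 33.2 ± 2.56 CPM (SD, n = 4) in MA12 and 31.0 ± 2.74 CPM in MA24, and *Hdac2* 135 ± 8.25 and 127 ± 13.2 CPM. Their log2 FCs were -0.10 and -0.08, with edgeR adjusted p of 0.620 and 0.646. Both intervals included no change, from 0.801 to 1.09-fold for *Hdac1* and from 0.816 to 1.09-fold for *Hdac2*, and both excluded a change of 1.5-fold.

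*Hdac3*, the catalytic subunit of the NCoR and SMRT complexes, varied too little between these 8 rats to pass the variance filter and was tested without that filter, where 4.17% of genes passed. It was 73.2, 73.5, 74.3 and 81.5 CPM in the MA12 rats and 79.3, 91.6, 81.7 and 78.5 CPM in the MA24 rats. MA12 rat 7N again lay among the MA24 rats. The log2 FC was 0.13 ± 0.08 (SE), with an edgeR adjusted p of 0.322 and an exact permutation p of 0.0857. *Hdac8*, which acts on the cohesin subunit Smc3, was 12.7 ± 0.841 CPM in MA12 and 11.3 ± 0.817 CPM in MA24. Its log2 FC was -0.17 ± 0.14 (SE), with an edgeR adjusted p of 0.471. The exact permutation p of *Hdac8* was 0.0571 (adjusted 0.274), the same as for *Hdac4* and *Hdac5*.

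**Figure D2:**
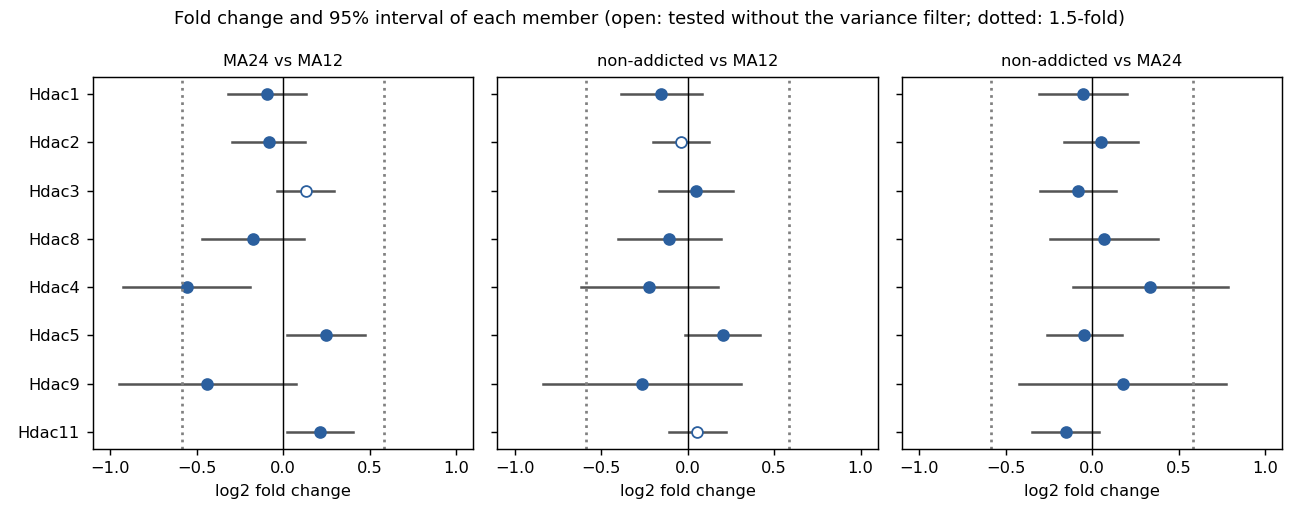
Log2 fold change of each member in the 3 comparisons (points) with its 95% interval from edgeR's fit (lines), where open points were tested without the variance filter and dotted lines mark a change of 1.5-fold. In MA24 vs. MA12 the intervals of *Hdac4*, *Hdac5* and *Hdac11* lie off 0 before adjustment over genes, with *Hdac4* at -0.56, and in the other 2 comparisons the interval of every member includes 0.

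Non-addicted rats were then compared with MA12 and with MA24. The first of these comparisons shares the MA12 rats, and the second the MA24 rats, with the comparison above. In neither did a member pass the test, where 0.27% of all genes passed against MA12 and 0.549% against MA24. Without adjustment, edgeR's quasi-likelihood test gave 0 of 6 members below 0.05 against MA12, where 12.3% of all genes were, and 0 of 8 against MA24, where 17.5% were. Without the variance filter, the same test gave 1 of 8 members below 0.05 unadjusted against MA12, as it did 1521 of 12657 genes. After adjustment 0 of these 8 passed. DESeq2 also called 0 members in both. The groups of every member overlapped in both comparisons, where 7.1% of all genes did not overlap against MA12 and 10% did not against MA24.

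*Hdac4* in the non-addicted rats was 9.43, 21.6, 17.0 and 18.1 CPM in rats 9, 11, 12 and 13. Rat 9 thus had less *Hdac4* than every MA12 rat, and the other 3 fell within the range of the MA12 rats or just above it. The log2 FC was -0.22 ± 0.19 (SE) against MA12 (edgeR adjusted p = 0.683) and 0.34 ± 0.21 against MA24 (edgeR adjusted p = 0.410). *Hdac9* showed the same low value in rat 9, with 2.08 CPM against 5.18, 3.44 and 5.10 CPM in rats 11, 12 and 13.

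*Hdac5* was 197, 229, 199 and 224 CPM in the non-addicted rats 9, 11, 12 and 13. Its log2 FC was 0.20 ± 0.10 (SE) against MA12 (edgeR adjusted p = 0.438) and -0.04 ± 0.10 against MA24 (edgeR adjusted p = 0.843). By group mean, non-addicted and MA24 rats were neighbours, at 212 ± 16.6 and 218 ± 27.0 CPM, above the MA12 rats at 184 ± 19.8 CPM, and no neighbours in this order differed in the test.

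*Hdac11* was 659, 629, 570 and 684 CPM in the same rats. Rat 13 alone reached the lower end of the MA24 rats, and rat 12 lay near the lowest MA12 rat. Its log2 FC was -0.15 ± 0.09 (SE) against MA24, with an edgeR adjusted p of 0.381 and an exact permutation p of 0.0571. Against MA12 it was tested without the variance filter, where 0.0395% of genes passed, with a log2 FC of 0.06 ± 0.08 and an edgeR adjusted p of 0.840.

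Among the class I members, log2 FCs against MA12 ran from -0.15 for *Hdac1* to 0.05 for *Hdac3*, and against MA24 from -0.08 for *Hdac3* to 0.07 for *Hdac8*. All 12 rats lay between 26.1 and 36.3 CPM for *Hdac1* and between 10.4 and 13.9 CPM for *Hdac8*. A single test of any difference among the 3 groups also called none of the 8 members, where 2.79% of all genes passed. The smallest adjusted p in that test were 0.212 for *Hdac4*, 0.221 for *Hdac11* and 0.223 for *Hdac5*, and at an unadjusted p none of the 8 was below 0.05, where 24.2% of all genes were.

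Markers of other cells moved between these groups. Among all genes tested, 0.27% were called between non-addicted and MA12 rats and 0.549% between non-addicted and MA24 rats. Of 12 vascular markers, 5 were called lower in non-addicted than in MA12 rats and 3 lower than in MA24 rats, and their summed level was 457 to 636 CPM in non-addicted, 634 to 813 CPM in MA12 and 713 to 775 CPM in MA24 rats. Of 8 oligodendrocyte markers, 1 was called lower in non-addicted than in MA24 rats, with summed levels of 12094 to 17806 and 18628 to 21902 CPM. Between MA24 and MA12, where 5.16% of all genes were called, 2 vascular markers were called lower. Others of the 12 lay on the higher side. The median log2 FC of the 12 was -0.05, against -0.02 over all genes tested. No oligodendrocyte marker was called in that comparison, and MA12 rats spanned 12610 to 22433 CPM for the oligodendrocyte markers. Other lists went the opposite way, since the ependymal marker *Foxj1* was called higher in non-addicted than in MA24 rats (log2 FC 1.08, edgeR adjusted p = 0.0354), and 4 choroid plexus markers had summed levels of 5.83 to 23.3 CPM in non-addicted rats, the highest in rat 9, against 2.74 to 4.29 CPM in MA24 and 2.16 to 8.15 CPM in MA12 rats. Without the variance filter, edgeR's quasi-likelihood test called 0 of these markers in both comparisons with non-addicted rats, while the 2 vascular calls between MA24 and MA12 remained at that setting. The part of these cells in the HDAC values was not tested.

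The make-up of the family was compared as the share of member reads that each gene held in a rat, which does not depend on how libraries are scaled. *Hdac11* held 59.1% ± 1.22 (SD, n = 4) of member reads in MA24, 56.7% ± 0.718 in MA12 and 56.7% ± 1.49 in non-addicted rats. Its shares in MA24 ran from 57.8% to 60.6%, above the 56.0% to 57.6% of MA12. The exact permutation p was 0.0286 and, adjusted over 30 such tests, 0.286. *Hdac8* shares did not overlap either and lay on the other side, with 0.947% ± 0.0646 in MA24 and 1.19% ± 0.103 in MA12 rats, at the same exact permutation p of 0.0286 (adjusted 0.286). Shares in a rat are parts of a whole, so a higher *Hdac11* share lowers the sum of the rest, and these results are not separate. The rest did not all lie lower in MA24. *Hdac5* held 18.3% ± 1.96 in MA24 and 17.1% ± 1.16 in MA12 rats (exact permutation p = 0.371), while every other member besides *Hdac11* had a lower mean share. In CPM, the *Hdac8* levels of MA24 and MA12 rats overlapped. Class I members together held 21.2% ± 2.09 in MA24 and 24.0% ± 1.35 in MA12 (exact permutation p = 0.0571), and class IIa members 19.7% ± 2.10 and 19.3% ± 0.992 (exact permutation p = 0.886). No share passed after adjustment.

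The levels of some members were related between rats. *Hdac3* and *Hdac4* were opposed in all 3 groups, with a Pearson r of -0.943 over the 12 rats (permutation p = 7e-05, adjusted over 28 pairs 0.00196) and a Spearman rho of -0.762 (permutation p = 0.00563, adjusted 0.142). Without the 2 rats farthest from the median of *Hdac3*, r was -0.811. Within the 6 rats with numbers ending in N r was -0.979, and within the 6 others -0.916. The 3 rats lowest in *Hdac4* for their group, MA12 rat 7N, MA24 rat 14N and non-addicted rat 9, were the highest of their group in *Hdac3*, with 81.5, 91.6 and 92.1 CPM.

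*Hdac2* was opposed to *Hdac4* in the same manner within each group, with r of -0.961 in MA12, -0.873 in MA24 and -0.991 in non-addicted rats, each over 4 rats and given without a test. Over all 12 rats r was -0.525 (permutation p = 0.0811, adjusted 0.288; rho -0.497, permutation p = 0.101). *Hdac9* went with *Hdac4* (r = 0.755, permutation p = 0.00442, adjusted 0.0413; rho 0.671, adjusted 0.142) and against *Hdac3* (r = -0.776, permutation p = 0.00258, adjusted 0.0361; rho -0.643, adjusted 0.142). Without the 2 rats farthest from the median of *Hdac4* and of *Hdac3*, these r were 0.495 and -0.479. Leaving out the outer rats also narrows the range, so the lower r does not show that the relations rest on them. Within the 6 rats with numbers ending in N the r were 0.353 and -0.468, and within the 6 others 0.958 and -0.872. Of the 28 pairs, 3 passed after adjustment by r and 0 by both r and rho. How large a share of pairs among other genes would pass was not computed. These relations are therefore not shown to be particular to HDACs.

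**Figure D3:**
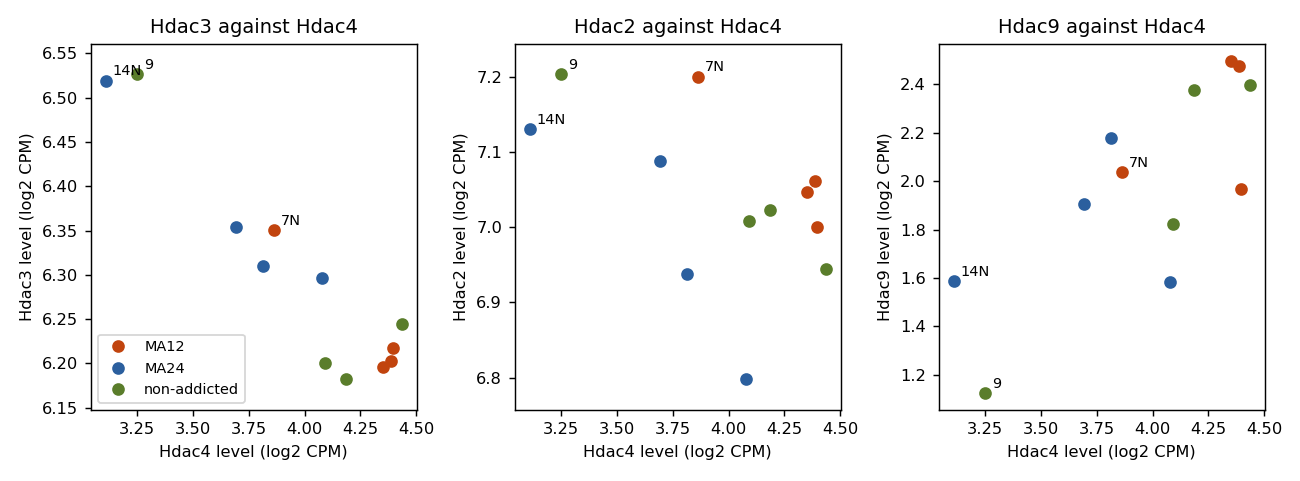
Levels of *Hdac3*, *Hdac2* and *Hdac9* against *Hdac4* in log2 CPM, 1 point per rat and 1 colour per group, with MA12 rat 7N, MA24 rat 14N and non-addicted rat 9 named. *Hdac3* falls as *Hdac4* rises over the 12 rats (r = -0.943), and the 3 named rats sit at the low-*Hdac4* end of their groups.

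Over the 12 rats, the r with PC1 was 0.790 for *Hdac4* and 0.687 for *Hdac9*, and -0.747 for *Hdac3* and -0.753 for *Hdac11*, whereas it was 0.00 for *Hdac2*. These values are a description, since all points share library and depth with PC1, and PC1 holds the difference between MA24 and MA12 rats as well. The r of *Hdac4* with the mean level of 71 ribosomal protein genes was -0.529, that of *Hdac8* -0.765, that of *Hdac11* 0.608 and that of *Hdac3* 0.543. That ribosomal level was 0.149 higher on the log2 scale in MA24 than in MA12 rats (exact permutation p = 0.0857). The part of this difference in the values of these members was not tested.

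The genes whose levels over the 12 rats were most like those of the 3 members nearest to the threshold were sought among 10764 genes. For *Hdac4* they were *Atxn1* (r = 0.970), *Elmsan1* (0.966), *Ctif* (0.963), *Srgap3* (0.960) and *Hcfc1* (0.958). For *Hdac11* they were *Rab4b* (0.948), *Pmvk* (0.947), *RGD1564379* (0.924), *Tprg1l* (0.923) and *Manbal* (0.922). For *Hdac5* they were *Lzts3* (0.954), *Sptbn4* (0.953), *Smarca4* (0.936), *Skiv2l* (0.936) and *Rnf10* (0.930). These are the highest of many values over 12 rats and carry no test.

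Genes that work with the HDACs were examined by list in MA24 vs. MA12, where 5.16% of all genes tested were called. None of 5 tested sirtuins, the NAD-dependent class III deacetylases, passed, and none of 21 corepressor subunits that hold class I members, although their values ran on both sides of 0 with a median log2 FC of -0.04. Among the 21 was *Ncor1*, the scaffold that binds *Hdac3*, with a log2 FC of -0.32 and an edgeR adjusted p of 0.0519. Without the variance filter 32 subunits were tested and 1 was called, where 4.17% of all genes passed. This was again *Ncor1*, with the same log2 FC of -0.32 (edgeR adjusted p = 0.0348). *Ncor1* and *Foxj1* were named after their values were seen. Of 11 genes tested from a list of histone acetyltransferases, the enzymes that oppose HDACs, 2 were called lower in MA24. They were *Ncoa2*, a nuclear receptor coactivator, with a log2 FC of -0.68 (edgeR adjusted p = 0.0144), and *Atf2*, a CRE-binding factor, with -0.40 (edgeR adjusted p = 0.0313). The list also takes in coactivators and transcription factors, as these 2 are. Its values lay on both sides of 0, with a median of -0.21. Without MA12 rat 21, MA24 rat 14N or MA24 rat 16N, 1 of the 2 was called. None of 9 readers of acetyl-lysine passed.

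The partners of class IIa members gave 2 calls in this comparison, where 5.16% of all genes tested were called. Of 14 kinases that can phosphorylate class IIa HDACs, *Camk2d*, the delta subunit of CaM kinase II, fell with a log2 FC of -0.73 (edgeR adjusted p = 0.0162), the same side of 0 as *Hdac4*. Of 3 MEF2 factors, *Mef2a* fell with a log2 FC of -0.47 (edgeR adjusted p = 0.0187). Neither was called without MA12 rat 21, and *Mef2a* was not called without MA24 rat 14N. The single 14-3-3 gene that passed the filters was not called.

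In the non-addicted rats 1 gene of all these lists was called. Of all genes tested, 0.27% were called against MA12 and 0.549% against MA24. *Camk1g*, a neuronal CaM kinase I, rose with a log2 FC of 0.77 against MA12 (edgeR adjusted p = 0.0436) and 0.80 against MA24 (edgeR adjusted p = 0.0387), and both calls were lost without the variance filter. The first was also lost without non-addicted rat 9, 11 or 12 or MA12 rat 21, 31 or 4N, and the second without non-addicted rat 11 or 12 or MA24 rat 15N or 16N. *Mef2a* and *Camk2d* were not called in either of these comparisons. Against MA24, *Camk2d* had a log2 FC of 0.65 with an edgeR adjusted p of 0.0795.

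**Figure D4:**
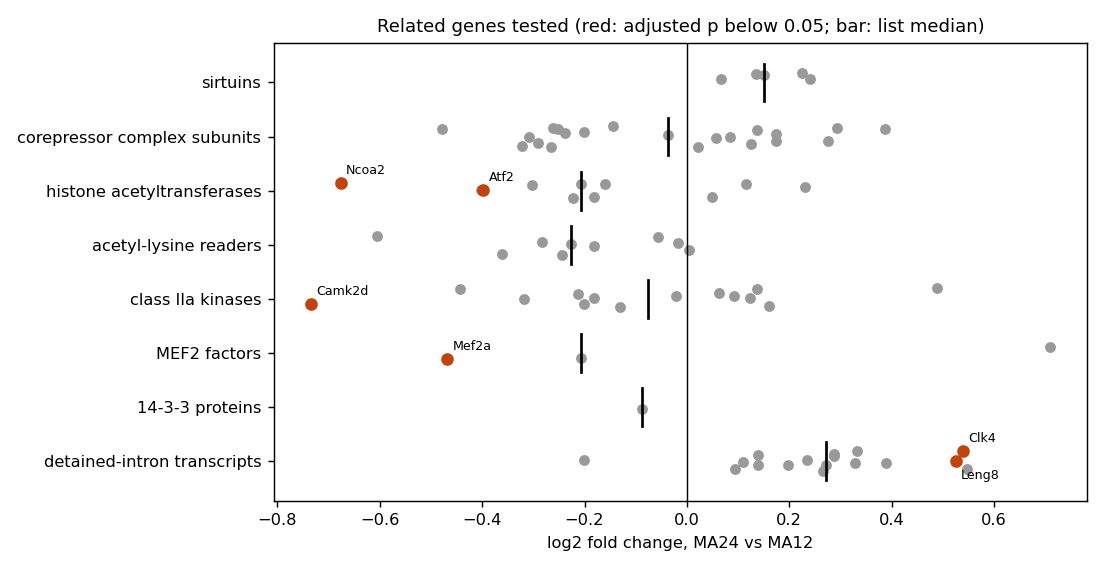
Log2 fold change in MA24 vs. MA12 of every tested gene in the lists of HDAC partners and in a list of detained-intron transcripts (points, with the list median as a bar), where red points passed an adjusted p below 0.05 in edgeR's quasi-likelihood test. The named points are *Ncoa2* (-0.68), *Atf2* (-0.40), *Camk2d* (-0.73), *Mef2a* (-0.47), *Clk4* (0.54) and *Leng8* (0.53).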

How the data were processed

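Poly-A RNA from 1 striatum per rat was sequenced in paired-end libraries. According to the methods and the submitters' processing notes, the authors used Cutadapt 1.18 for trimming, STAR 2.7.0e for alignment to rn6 and featureCounts for counting. The deposited values are raw read counts per gene, not normalized. The notes also list HTSeq 0.12.4, with no role stated. Strand and multi-mapped read settings were not given in the sources used here, so counts shared with overlapping genes or near-identical copies are uncertain.

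Counts were analysed in R 4.3.3 with edgeR 4.0.16 (TMM, glmQLFit, glmQLFTest), pair by pair of groups with 4 rats each. Genes entered a fit with a mean count above 4, less the 15% that varied least in log2 CPM. A gene was called at a Benjamini-Hochberg adjusted p below 0.05 over all genes tested. Members that the variance filter removed were tested without it, and 95% intervals come from the fit's SE. Two-sided exact permutation tests used log2 CPM with a prior count of 2 over 70 splits, and correlations used 100000 permutations (Python 3.11.15, scipy 1.17.1). The fit was also run on simulated counts drawn separately for each gene, without shared variation such as PC1, so that run does not test the calls given above. Alternatives were DESeq2 1.42.0, other scalings, tests and filters, all 3 groups in 1 fit, the kind of rat number (ending in N or not, with no meaning given in the sources used here), and each rat left out.

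Named genes were every member, at most 3 called genes per partner list, direction and comparison, and the 5 genes most like each of 3 members. The members and gene lists were chosen with earlier results of these data known.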

Additional observations from a re-analysis of the deposited data

Results flagged for a closer look

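Of 24 sets of 4 rats (8 members in 3 groups), 2 held a rat that stood far from the other 3, where chance gives about 1.2. Both were MA12 rat 7N. Its *Hdac4* level of 14.4 CPM lay below 20.3 to 21.0 CPM in the other MA12 rats, a gap that made up 0.915 of the range of the group on the log2 scale. Its *Hdac3* level of 81.5 CPM lay above 73.2 to 74.3 CPM in the others, with a gap of 0.860 of the range. Rat 7N also had the fewest counts of the 12, with 17908962. Whether these go together was not tested.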

How the results depend on the processing

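Of 396 member values under the alternatives, 380 kept their direction and side of the threshold, 6 crossed the threshold in the same direction and 10 changed sign. All 6 were *Hdac4* in MA24 vs. MA12, the 1 member called under DESeq2, the likelihood ratio test, total counts (adjusted p = 0.0471) or no filter on counts (adjusted p = 0.0461). Leaving out 1 rat gave 0 to 1 called members, the 1 without MA12 rat 7N or without MA24 rat 16N (log2 FC -0.70, edgeR adjusted p = 0.0467). Over 19 alternatives its log2 FC ran from -0.70 to -0.40 and its adjusted p from 0.0284 to 0.415. In an alternative chosen after seeing the data, without MA12 rat 7N and MA24 rat 14N, it was -0.49 (edgeR adjusted p = 0.0569). The other member counts stayed at 0 to 0 with 1 rat left out.

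Values that changed sign were near 0 or came with the kind of rat number. With only rats numbered with N, *Hdac1* in MA24 vs. MA12 was 0.00524. Non-addicted vs. MA12 with the covariate gave 0.00797 for *Hdac2*. Non-addicted vs. MA24 gave 0.00849 for *Hdac1* and 0.0195 for *Hdac5* under total counts. With the covariate it gave 0.0280 for *Hdac3*, 0.22 for *Hdac5*, and -0.30 for *Hdac9*, and, beside the members, 0.0660 for *Hdac10*. All MA24 rats have numbers ending in N and no non-addicted rat has, so in this comparison the kind of number cannot be told apart from the group except through the MA12 rats. With 1 rat left out, it ran from -0.16 to 0.00894 for *Hdac1*, from -0.00793 to 0.0952 for *Hdac2* and from -0.0140 to 0.124 for *Hdac8*. The cause was not tested.

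Of the partner and detained-intron lists, 6, 1 and 1 genes were called in the 3 comparisons, and 2 to 12, 0 to 2 and 0 to 3 with 1 rat left out. Over all genes, 5.16%, 0.27% and 0.549% of those tested were called in the main fits. In MA24 vs. MA12 the lowest count came without MA12 rat 21 or MA24 rat 14N and the highest without MA24 rat 9N. Non-addicted vs. MA12 gave 0 under total counts, no variance filter and all 3 groups in the fit. Non-addicted vs. MA24 gave 2 under total counts, and 0 under no variance filter and all 3 groups.

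No paired analysis was possible because the groups compared share no rat number.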

Other observations

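*Hdac10* is a class IIb enzyme best known for deacetylating polyamines. It was not among the chosen names and is given because its values were seen. It had 13.7, 14.8, 14.8 and 23.2 CPM in MA12 rats 21, 31, 4N and 7N, 23.1, 34.3, 23.4 and 31.7 CPM in MA24 rats 9N, 14N, 15N and 16N, and 23.1, 20.6, 24.2 and 19.3 CPM in non-addicted rats 9, 11, 12 and 13. The MA24 rats were above 3 of the 4 MA12 rats, while MA12 rat 7N stood just above MA24 rat 9N. *Hdac10* rose 1.70-fold in MA24 vs. MA12 (95% interval 1.33 to 2.17, edgeR adjusted p = 0.0160, exact permutation p = 0.0571). Over 19 alternatives the log2 FC ran from 0.56 to 0.97. The call was lost with the kind of rat number as covariate (edgeR adjusted p = 0.174). It was also lost among rats numbered with N, where rats 4N and 7N are the only MA12 rats (edgeR adjusted p = 0.127). It also passed the test of any difference among the 3 groups (edgeR adjusted p = 0.0413). In non-addicted rats its log2 FC was 0.39 against MA12 (edgeR adjusted p = 0.308) and -0.37 against MA24 (edgeR adjusted p = 0.196).

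Of 17 detained-intron and nuclear-retained transcripts, 2 rose in MA24 vs. MA12, where 5.16% of all genes tested were called. They were *Leng8* with a log2 FC of 0.53 (edgeR adjusted p = 0.0251) and *Clk4* with 0.54 (edgeR adjusted p = 0.0424). Without MA12 rat 4N, MA24 rat 14N or MA24 rat 16N, 0 of the 17 were called by edgeR's quasi-likelihood test. Without the variance filter *Leng8* alone of the 17 was called (edgeR adjusted p = 0.0419), where 4.17% of all genes passed. The summed level of all 17 was 2153 to 2683 CPM in MA24 and 1710 to 2262 CPM in MA12 rats. Its relation to the HDAC values was not tested.

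*Hdac1l*, listed under its own symbol, had 0 to 7 counts per rat.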
